A study of Homo sapiens with 3 samples.

Results

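The untransfected MG-OKS library is the baseline of a study on SPRR1A, which encodes a proline-rich precursor of the envelope around dead epidermal cells. MG-OKS is a human line that the series title describes as osteosarcoma cells made to resemble cancer stem cells. The library was chosen by its sample title and is 1 of 3 libraries in the series, the others coming from cells given siRNA. It was labelled wild type in genotype and mesenchymal in cell type, came from cells grown in DMEM with fetal bovine serum, and its title and genotype name no siRNA. The labels carry 1 transfection protocol for all 3 libraries, so whether these cells met the transfection reagent is not stated. It is 1 library of 1 line, so no value below has a replicate check. Levels are given in TPM, the authors' values corrected for transcript length and scaled to a fixed total, and brackets give exact Poisson 95% intervals, which cover counting error only.

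Cells of epithelial type build their cytoskeleton from keratins, paired as acidic type I and basic type II chains, and hold together through E-cadherin and desmosomes. Mesenchymal cells such as osteoblasts rely on the filament protein vimentin, use N-cadherin and secrete fibrillar collagen. The change from the epithelial to the mesenchymal state (EMT) is driven by factors of the SNAI, ZEB and TWIST families. POU5F1, SOX2, KLF4 and MYC are the factors used to reprogramme cells to pluripotency, a state in which NANOG and LIN28A are normally on as well.

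The library held 40050593 counts over 46427 genes, of which 22040 had at least 1 count. A gene was scored as on at 1 TPM or more, which 14110 genes (30.4%) reached, among them 11864 of 19672 protein-coding genes (60.3%). For 1994 genes the counting interval spanned 1 TPM, so that their call could go either way. A TPM of at least 100 was reached by 1623 genes (3.5%), and by 8.05% of protein-coding genes. Genes with 0 counts made up 52.5% of the table and 24.4% of the protein-coding genes. A floor of 3 counts corresponds to 0.0749 CPM, counts scaled to the library total without length correction. For SPRR1A (Gene 6698 of NCBI, chromosome 1, GRCh38 positions 152984081 to 152985814), the gene the study targets, 0 counts were listed at this depth. How reads with several places were counted is not given in the sources used here. Sequence that SPRR1A shares with its relatives was not examined, so this zero is uncertain.

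The most abundant transcript was GAPDH, a glycolytic enzyme, at 14685 TPM. The 10 most abundant genes held 9.14% of all TPM, the 30 most abundant 17.5% and the 1000 most abundant 65.0%. Ribosomal protein genes made up 11 of the 30, led by RPS18 at 10464 TPM, and mitochondrially encoded genes made up 8, led by ND4L at 10922 TPM. Over the whole library, 86 cytosolic ribosomal protein genes summed to 14.3% and the 13 mitochondrially encoded protein genes to 6.70% of TPM. ND4L overlaps ND4, and ATP8 overlaps ATP6, so their levels are uncertain.

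Among the other 11 of the 30, several were cytoskeletal. ACTB, the main cytoplasmic actin, had 6850 TPM, TMSB10, an actin monomer-binding thymosin, 4608 TPM, and CFL1, the actin-severing cofilin, 3135 TPM. The chaperone HSP90AB1 had 7298 TPM, the translation elongation factor EEF1A1 6640 TPM and the enolase ENO1 3283 TPM. S100A6, a calcium-binding protein, had 4547 TPM, and LGALS1, the galactoside-binding galectin of mesenchymal tissue, 4387 TPM. The remaining pair were filament genes of opposite lineage. KRT14, the type I keratin of basal keratinocytes, stood at rank 20 with 3739 TPM [3718 to 3761], and VIM, vimentin, at rank 23 with 3510 TPM.

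**Figure D1:**
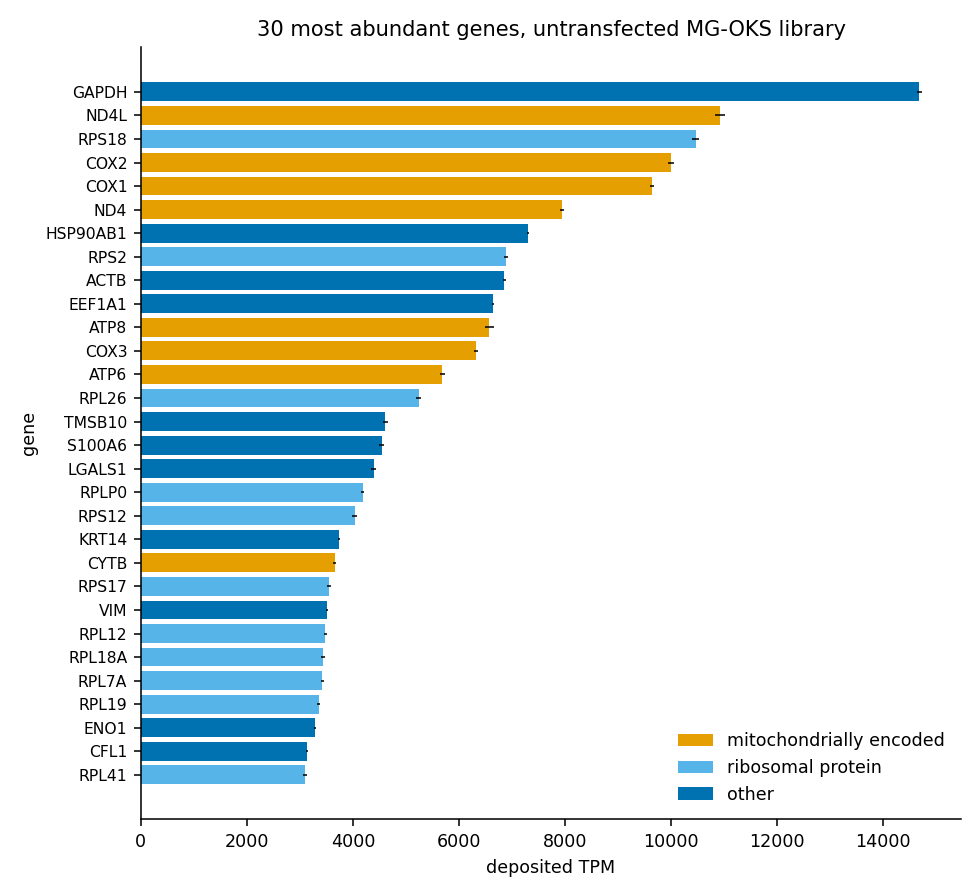
Deposited TPM of the 30 most abundant genes in the untransfected library, 1 bar per gene with its 95% counting interval, coloured by class. KRT14 at 3739 TPM and VIM at 3510 TPM lie close together among ribosomal protein genes.

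KRT14 (Gene 3861, chromosome 17, 41582279 to 41586895) and VIM (Gene 7431, chromosome 10, 17228241 to 17237593) were thus at nearly the same level, with a TPM ratio of 1.07 [1.06 to 1.07]. Without length correction, VIM ranked 8 and KRT14 18. In a bulk library, 1 cell type that makes both and a mixture of cell types cannot be told apart, and fewer cells of a type cannot be told from less RNA per cell.

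The basal and activated keratinocyte list was on almost throughout, in 17 of 18 members, where 60.3% of all protein-coding genes were on. At least 100 TPM was reached by 6 members, a level that 8.05% of protein-coding genes reached. The median of the list was 36.5 TPM, against 4.94 TPM over all protein-coding genes. KRT6A, a type II keratin of activated keratinocytes (Gene 3853, chromosome 12, 52487176 to 52493257), stood at rank 36 with 2803 TPM. KRT16, the type I keratin usually made with it, had 745 TPM, ITGA6, a laminin-binding integrin, 451 TPM, and PERP, a desmosomal membrane protein, 268 TPM.

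Other genes that usually define basal keratinocytes were low or off. KRT5, the usual type II partner of KRT14, had 227 counts and 5.51 TPM [4.82 to 6.28], so that KRT14 was 679-fold higher per length than KRT5 [596 to 776]. TP63, the master regulator of the basal state, had 65 counts and 0.669 TPM [0.517 to 0.853] and was the only member of the list scored off. KRT17, another basal type I keratin, had 38 counts and 1.35 TPM [0.958 to 1.86]. The hemidesmosome was uneven. ITGB4, the partner of ITGA6 there, had 5.09 TPM, 88.5-fold below ITGA6, and the hemidesmosomal collagen COL17A1 had 14.4 TPM. ITGB1, the alternative partner of ITGA6, had 244 TPM. Of the laminin-332 chains, LAMB3 had 30.7 TPM and LAMA3 7.42 TPM.

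Across the keratin family, taken by symbol after the values were seen, 11 of 28 type I genes and 13 of 26 type II genes were on. Of all protein-coding genes, 60.3% were on. The keratins summed to 5253 TPM of type I and 3305 TPM of type II. KRT14 with KRT16 made up most of the first sum and KRT6A most of the second. KRT13, a type I keratin of moist stratified epithelia, had 261 TPM, while its usual partner KRT4 had 41 counts and 1.03 TPM. KRT15, a further basal keratin, had 61.0 TPM. The hair-type keratin KRT81 had 28.9 TPM, and KRT80 had 39.0 TPM.

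Reads of near-identical keratins may be split between copies, and how reads with several places were counted is not given in the sources used here. In GENCODE 29 transcripts, 30.7% of the 50-base windows of KRT6A, 46.8% of those of KRT6B and 44.3% of those of KRT6C also occur in another KRT6 gene. The levels of KRT6B (88.7 TPM) and KRT6C (143 TPM) are therefore uncertain. For KRT14 only 8.33% of windows occur in KRT16 or KRT17. For KRT17, 0.798% occur in KRT14 or KRT16, and other copies were not compared, so its low level is uncertain. The pseudogenes KRT16P1 and KRT16P4 were listed at 6.44 and 6.22 TPM.

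Suprabasal and cornified envelope genes, which mark the differentiating layers, were on in 9 of 20 members (45%), against 60.3% of all protein-coding genes. Of the 20 members 6 had 0 counts, as did 24.4% of protein-coding genes. Besides KRT13, the highest were KRT10, the early suprabasal keratin, at 31.8 TPM, SPRR3, a cornified envelope precursor, at 28.7 TPM, and SPRR2D at 5.90 TPM. Several other differentiation markers were at or near 0. KRT1, the partner of KRT10, LORICRIN and SPRR1B had 0 counts, and IVL, involucrin, had 6 counts and 0.149 TPM [0.0548 to 0.325]. The crosslinking enzyme TGM1 had 3.14 TPM.

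Simple epithelial genes were on in 8 of 12 members (66.7%), near the 60.3% of all protein-coding genes. KRT18 and KRT8, the paired keratins of simple epithelia, had 353 and 127 TPM, a ratio of 2.79 [2.69 to 2.89]. VIM was 9.96-fold higher than KRT18 and 27.7-fold higher than KRT8. CD24, a surface glycoprotein, had 94.2 TPM, KRT7 had 48.1 TPM and KRT19 had 33.4 TPM. EPCAM, the adhesion molecule that defines most epithelia, had 5 counts and 0.151 TPM [0.0492 to 0.353], and the tight junction gene CLDN3 had 0 counts.

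The regulators and junction genes of epithelia were mostly off. Of 28 members, 6 were on, against 60.3% of all protein-coding genes. Counts were 0 for 9 members, as for 24.4% of protein-coding genes. The median was 0.132 TPM, against 4.94 TPM over all protein-coding genes. CDH1, E-cadherin (Gene 999, chromosome 16, 68737292 to 68835537), had 2 counts and 0.0224 TPM [0.00271 to 0.0807]. ESRP1, an epithelial splicing regulator, and GRHL2, an activator of CDH1, had 0 counts. CDH3, P-cadherin, had 19 counts and 0.228 TPM.

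The desmosome was likewise incomplete. None of 7 desmosomal cadherin genes was on and 5 had 0 counts, while DSG3 had 16 counts. Of all protein-coding genes, 60.3% were on and 24.4% had 0 counts. DSP, desmoplakin, which anchors keratins to the desmosome, had 2.08 TPM [1.86 to 2.31], and JUP, plakoglobin, 0.80 TPM. PKP3, a plakophilin, had 59.0 TPM, 28.4-fold more than DSP, and PERP, given above, was higher still. The serine protease inhibitor SPINT2 had 22.6 TPM, and GRHL1 and EHF, epithelial transcription factors, had 2.75 and 1.08 TPM.

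**Figure D2:**
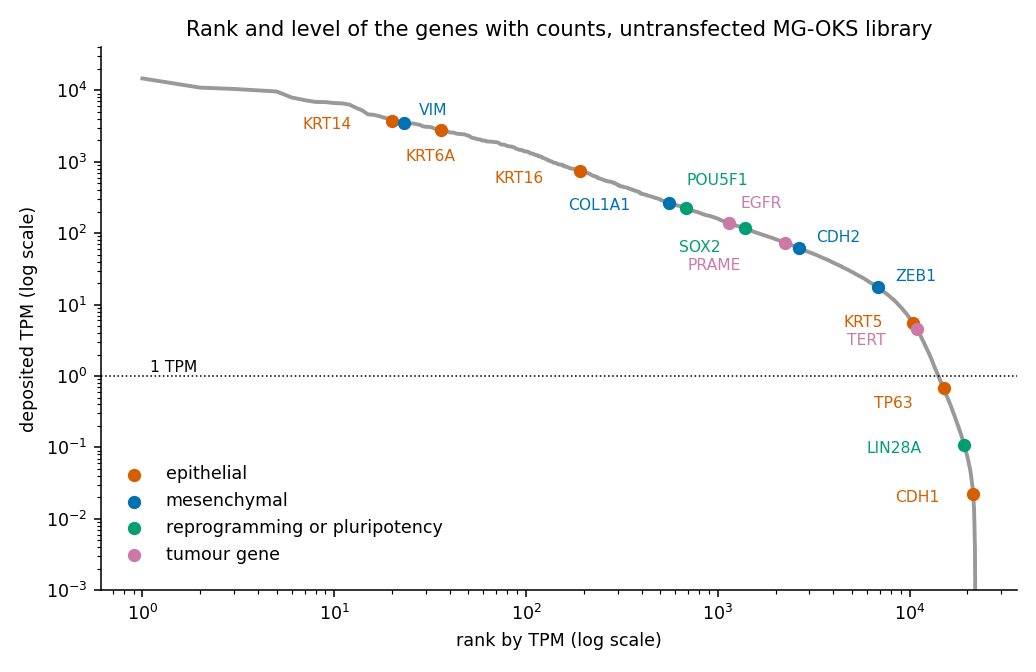
Deposited TPM against rank for the genes with counts in the untransfected library, both on log scales, with named genes marked by class and the level of 1 TPM dotted. The curve is drawn down to 0.001 TPM. KRT14, KRT6A and VIM lie among the first 36 ranks, whereas TP63 and CDH1 lie below 1 TPM.

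Mesenchymal identity genes were on in 25 of 28 members (89.3%), against 60.3% of all protein-coding genes. Their median was 61.5 TPM, and 9 reached 100 TPM, a level that 8.05% of protein-coding genes reached. After LGALS1 and VIM, the highest were TPM2, a tropomyosin of stress fibres, at 1396 TPM and S100A4, a calcium-binding protein of motile mesenchymal cells, at 701 TPM. COL6A3, a chain of the microfibrillar collagen VI, had 640 TPM. COL1A1 (Gene 1277, chromosome 17, 50184101 to 50201631), the major chain of type I collagen, had 268 TPM, 4.11-fold more per length than its partner COL1A2 at 65.2 TPM. SPARC, a collagen-binding matrix protein, had 261 TPM, COL3A1 76.7 TPM and FN1, fibronectin, 60.6 TPM. Among the lower defining members, the proteoglycans LUM and DCN had 21.6 and 17.9 TPM and PDGFRB, a growth factor receptor of stromal cells, had 8.94 TPM.

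The members scored off were POSTN, periostin, with 0 counts, FAP, fibroblast activation protein, at 0.650 TPM, and TAGLN, a smooth muscle actin-binding protein, at 0.704 TPM. Among cadherins, CDH2, N-cadherin (Gene 1000, chromosome 18, 27932879 to 28177130), led with 62.5 TPM. It was 2797-fold higher per length than CDH1, with a wide counting interval [774 to 23099.9] that comes from the 2 counts of CDH1. Of 23 cadherins numbered CDH, a family taken by symbol after the values were seen, 5 were on, against 60.3% of all protein-coding genes. CDH11, the osteoblast cadherin, had 28.2 TPM and CDH6 had 23.7 TPM.

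EMT transcription factors were on in 11 of 12 members (91.7%), against 60.3% of all protein-coding genes. Levels were moderate, with a median of 18.6 TPM. SNAI2 had 20.9 TPM, TWIST1 19.6 TPM, ZEB1 17.5 TPM, ZEB2 5.66 TPM and SNAI1 5.23 TPM. The highest were TCF3, a broadly expressed E protein, at 81.4 TPM, PRRX2 at 52.5 TPM, TWIST2 at 46.4 TPM and FOXC2 at 24.5 TPM. The exception was PRRX1, a homeobox factor of limb and facial mesenchyme, with 20 counts and 0.254 TPM [0.155 to 0.392], although its relative PRRX2 was on.

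The surface set used for mesenchymal stromal cells was on in 7 of 13 members (53.8%), near the 60.3% of all protein-coding genes. Its blood markers were off, but so were MCAM and VCAM1. CD44, the hyaluronan receptor, had 798 TPM, ALCAM 234 TPM, NT5E (CD73) 147 TPM, ENG (CD105) 92.4 TPM and THY1 (CD90) 54.4 TPM. CD34, PTPRC (CD45) and CD14 had 9, 5 and 10 counts, and HLA-DRA had 0 counts. MCAM, VCAM1 and NGFR, markers of other stromal subsets, had 0.0648 TPM, 0 counts and 1.0 TPM.

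Set side by side, the 40 genes of the mesenchymal identity and EMT lists were on in 36 cases, and the 78 different genes of the 4 epithelial lists in 40 cases. These are 90% and 51.3% of the members, where 60.3% of all protein-coding genes were on. The epithelial share pools unlike lists, with 94.4% of the keratinocyte, 45% of the suprabasal, 66.7% of the simple epithelial and 21.4% of the regulator list on. Members were chosen with earlier results of these data known, so the shares depend in part on how the lists were made up. Of the members marked as defining in the mesenchymal identity and EMT lists, all but PRRX1 were on. Of the 78 epithelial members, 9 were at 100 TPM or more, a level that 8.05% of protein-coding genes reached. Of these 9, 7 were keratins and the others were ITGA6 and PERP.

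**Figure D3:**
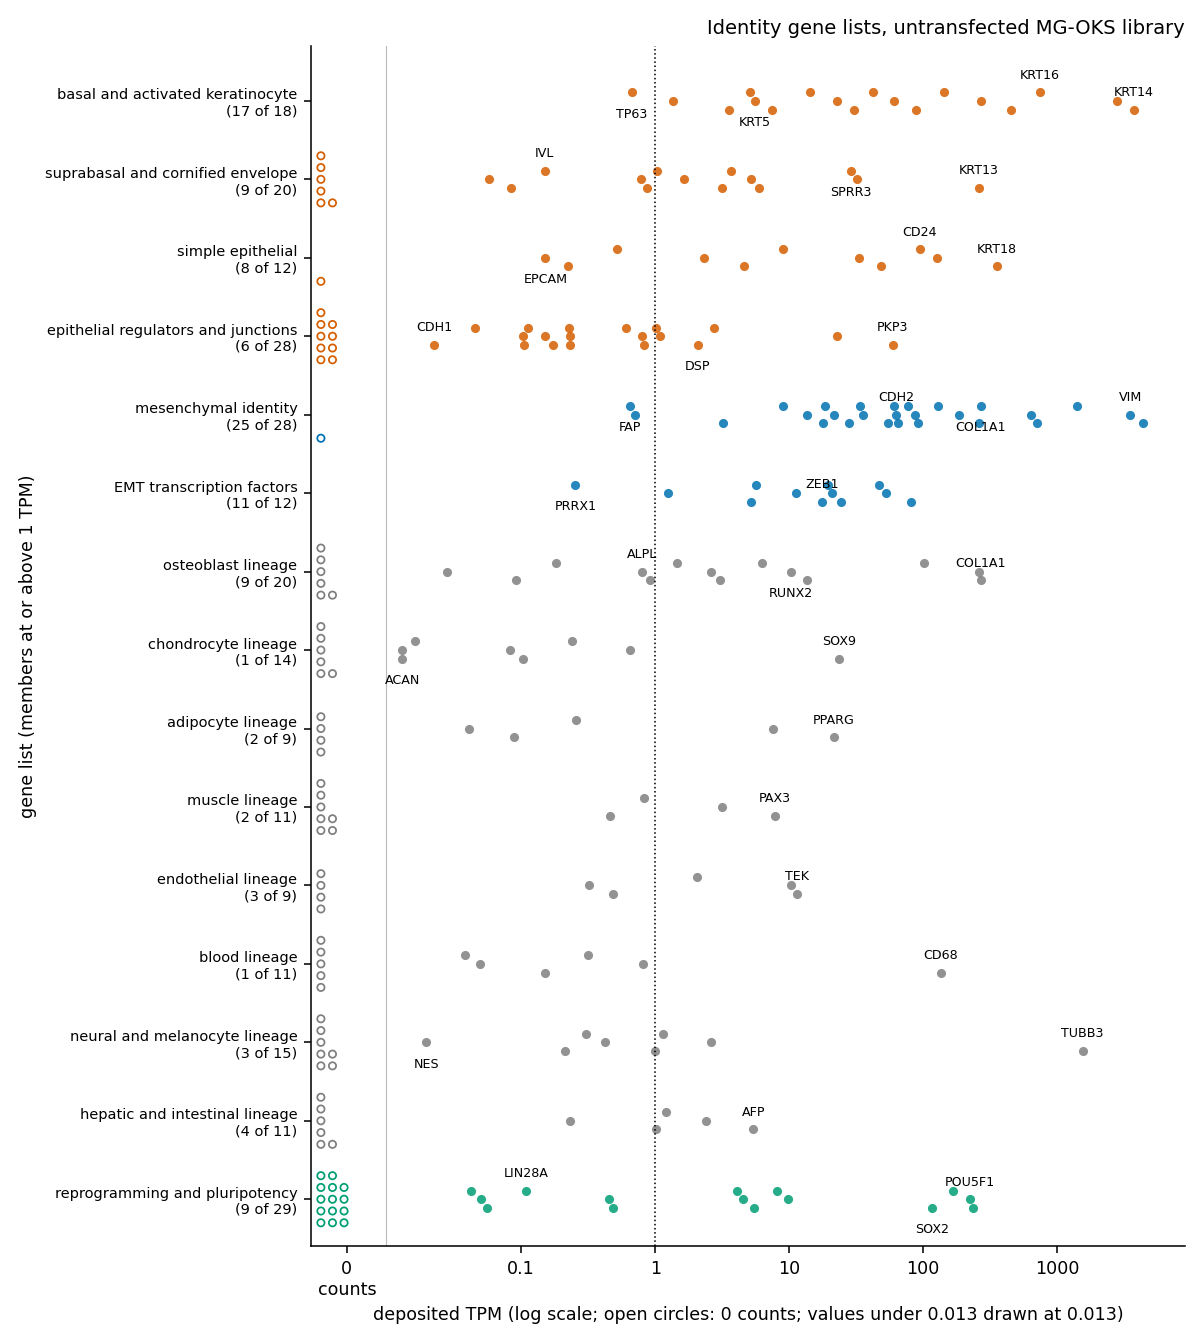
Deposited TPM on a log scale of every member of 15 identity lists in the untransfected library, 1 point per gene, with genes at 0 counts as open circles at the left and the level of 1 TPM dotted. Epithelial lists are orange, mesenchymal lists blue, other lineages grey and the pluripotency list green. The keratinocyte and mesenchymal lists reach 3739 and 4387 TPM, and most epithelial regulators lie left of 1 TPM.

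The osteoblast list was on in 9 of 20 members (45%), against 60.3% of all protein-coding genes. RUNX2, the factor that starts osteoblast differentiation (Gene 860, chromosome 6, 45328330 to 45551082), had 10.3 TPM, and MSX2 13.7 TPM. SP7, the factor that acts after RUNX2, had 0 counts. ALPL, the alkaline phosphatase of mineralising cells, had 39 counts and 0.801 TPM [0.570 to 1.1]. SPP1, osteopontin, had 28 counts and 0.910 TPM [0.605 to 1.32]. IBSP, bone sialoprotein, and DMP1, MEPE and TNFSF11 had 0 counts. BGLAP, osteocalcin, was on at 3.07 TPM but from 29 counts [2.05 to 4.40]. TNFRSF11B, the secreted inhibitor of osteoclast formation, was high at 102 TPM, as were COL1A1 and SPARC, which fibroblasts make as well.

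The 7 other lineage lists were mostly off, with 16 of 80 members on (20%), and 39 at 0 counts. Of all protein-coding genes, 60.3% were on and 24.4% had 0 counts. In the chondrocyte list, SOX9, which directs cartilage, had 23.7 TPM, while its targets ACAN and COL2A1 had 3 and 0 counts. PPARG, the adipocyte regulator, had 21.6 TPM and CEBPA 7.58 TPM, but FABP4, ADIPOQ and PLIN1 had 0, 4 and 14 counts. PAX3, a regulator of muscle and neural crest precursors, had 7.86 TPM, whereas MYOD1, MYF5 and MYOG had 0 counts. MYH3, the embryonic muscle myosin, had 3.17 TPM. In the chondrocyte and adipocyte lists no member besides these regulators was on.

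Of the endothelial list, TEK, an angiopoietin receptor, and ERG, an endothelial factor, had 11.4 and 10.3 TPM and VWF 2.04 TPM, but CDH5 and KDR had 0 counts and PECAM1 61 counts. In the blood list, CD68, a lysosomal protein found in many cell types, was the only member on, at 135 TPM. CD3E had 0 counts, and SPI1 had 2. TUBB3, a neuronal tubulin that many tumour lines also make, had 1547 TPM and rank 88. SOX10 and MLANA, markers of neural crest and melanocytes, had 0 counts, and NES, nestin, had 3 counts. AFP, the fetal liver protein, had 5.41 TPM [4.75 to 6.14], and ALB had 0 counts. FOXA1, HNF4A and FOXA2, regulators of endoderm, had 2.39, 1.01 and 1.21 TPM, and CDX2 had 0 counts.

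Homeobox and T-box genes that mark body position were on in 30 of 40 members (75%), against 60.3% of all protein-coding genes. PITX1, a factor of the hind limb and jaw, led with 126 TPM, followed by BARX1 at 74.8 TPM, FOXF1 at 44.9 TPM and SIX2 at 31.7 TPM. The limb factors TBX4 and TBX5 had 0 counts. Of 39 HOX genes, 32 were on, in 8 of 12 genes of groups 1 to 4, 10 of 11 of groups 5 to 8 and 14 of 16 of groups 9 to 13, and the highest were HOXB7 (49.7 TPM) and HOXC10 (44.9 TPM). The HOXD cluster summed to 18.6 TPM, against 97.5, 138 and 130 TPM for HOXA, HOXB and HOXC.

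The reprogramming factor genes were high, while NANOG and many other pluripotency genes had 0 counts. MYC had 237 TPM, POU5F1 (Gene 5460, chromosome 6, 31164337 to 31170682) 222 TPM, KLF4 (Gene 9314, chromosome 9, 107484852 to 107489769) 167 TPM and SOX2 (Gene 6657, chromosome 3, 181711925 to 181714436) 117 TPM, at ranks 642, 686, 960 and 1381. All 4 exceeded 100 TPM, a level that 8.05% of protein-coding genes reached, and POU5F1 was 1.90-fold above SOX2 [1.83 to 1.98]. Of the 29 list members 9 were on, and 14 had 0 counts, NANOG, LIN28B, DPPA4, ZFP42, PRDM14 and UTF1 among them. Of all protein-coding genes, 60.3% were on and 24.4% had 0 counts. LIN28A had 8 counts and 0.109 TPM [0.0469 to 0.214], and SALL4 had 4 counts.

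The others on were low. KLF2 had 9.71 TPM, the DNA methyltransferase DNMT3B 8.04 TPM, KLF5 5.50 TPM, TERT 4.55 TPM and DNMT3L, a methyltransferase cofactor of germ cells, 4.05 TPM. The long noncoding RNA SOX2-OT, whose gene contains SOX2, had 2 counts and 0.0269 TPM, although SOX2 had 5381 counts. For POU5F1, 29.2% of 50-base windows also occur in POU5F1B or the pseudogenes POU5F1P3 and POU5F1P4, which were listed at 1.36, 9.46 and 1.02 TPM. Counts per gene cannot tell a gene's own transcripts from those of an introduced copy, and whether any copies were introduced is not given in the labels.

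Markers used for cancer stem cells were on in 8 of 15 cases (53.3%), near the 60.3% of all protein-coding genes. CD44 was joined by ALDH1A3, a retinaldehyde dehydrogenase, at 268 TPM, ALCAM at 234 TPM and the efflux pump ABCC1 at 187 TPM. PROM1 (CD133), KIT and LGR5 had 8, 0 and 0 counts. ALDH1A1 had 30 counts and 0.779 TPM [0.526 to 1.11], so that ALDH1A3 was 343-fold higher [240.4 to 509]. The efflux pumps ABCG2 and ABCB1 had 2.42 and 0.159 TPM.

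Tumour suppressor genes were on in 28 of 33 members (84.8%), against 60.3% of all protein-coding genes, with a median of 19.6 TPM. KEAP1, the NRF2 inhibitor, led with 295 TPM. RB1, which restrains entry into S phase, had 30.3 TPM and ATRX, a chromatin remodeller, 6.55 TPM. Besides CDH1, the members scored off were DLG2 at 0.353 TPM, FHIT at 0.0643 TPM, and the neighbours CDKN2A and CDKN2B with 0 counts each.

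CDKN2A, which encodes the inhibitors p16INK4a and p14ARF, and CDKN2B, which encodes p15INK4b, lie side by side on the short arm of chromosome 9. Their related inhibitors elsewhere in the genome were on, CDKN2C at 63.4 TPM and CDKN2D at 38.2 TPM, as were CDKN1B at 59.5 TPM and CDKN1A at 42.7 TPM. The long noncoding RNAs CDKN2B-AS1 and CDKN2A-DT at the locus also had 0 counts. The start regions of these genes are shown from RefSeq (GRCh38.p14), 250 bases before to 50 after each start, because the nearest coding genes of this pair at 0 counts are on at lower coordinates only. Each runs 5′ to 3′ on the gene's own strand, with each CG dinucleotide, the site of DNA methylation, in capitals.
CDKN2A at the p16INK4a start, chr9:21974808-21975107, minus strand: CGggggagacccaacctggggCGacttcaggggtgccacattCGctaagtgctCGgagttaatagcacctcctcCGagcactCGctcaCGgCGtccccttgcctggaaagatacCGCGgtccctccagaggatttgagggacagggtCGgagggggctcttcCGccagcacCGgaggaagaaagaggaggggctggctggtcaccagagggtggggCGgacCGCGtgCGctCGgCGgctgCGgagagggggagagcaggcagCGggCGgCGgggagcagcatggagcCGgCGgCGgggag
CDKN2A at the p14ARF start, chr9:21995275-21995574, minus strand: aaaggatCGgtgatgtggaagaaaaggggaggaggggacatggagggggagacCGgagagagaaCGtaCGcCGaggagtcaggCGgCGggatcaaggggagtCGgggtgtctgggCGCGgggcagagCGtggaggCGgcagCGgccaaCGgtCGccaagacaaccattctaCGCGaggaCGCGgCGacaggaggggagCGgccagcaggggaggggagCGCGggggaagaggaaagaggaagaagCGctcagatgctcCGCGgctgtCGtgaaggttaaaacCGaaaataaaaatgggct
CDKN2B, chr9:22009256-22009555, minus strand: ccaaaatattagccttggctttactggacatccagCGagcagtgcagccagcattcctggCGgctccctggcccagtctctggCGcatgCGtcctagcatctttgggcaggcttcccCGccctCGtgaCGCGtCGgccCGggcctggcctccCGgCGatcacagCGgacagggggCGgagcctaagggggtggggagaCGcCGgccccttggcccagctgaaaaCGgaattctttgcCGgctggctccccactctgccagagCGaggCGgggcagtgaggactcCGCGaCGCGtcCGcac
MTAP, chr9:21802386-21802685, plus strand: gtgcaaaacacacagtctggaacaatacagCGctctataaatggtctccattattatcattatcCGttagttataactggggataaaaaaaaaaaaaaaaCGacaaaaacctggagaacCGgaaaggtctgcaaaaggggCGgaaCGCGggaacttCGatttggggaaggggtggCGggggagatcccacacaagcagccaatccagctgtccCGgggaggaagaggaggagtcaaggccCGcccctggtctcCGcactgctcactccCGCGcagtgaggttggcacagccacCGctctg

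The p16INK4a and p14ARF start regions of CDKN2A held 26 and 28 CG dinucleotides and that of CDKN2B held 25. As many as 26, 28 and 25 were held by 30.1%, 26.2% and 32.0% of the 35116 RefSeq promoter sequences, whose median was 14. MTAP held 15. Neither the presence of the locus nor its methylation was measured, and these counts describe only the letters.

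At lower coordinates than CDKN2A the nearest coding gene, MTAP, a methylthioadenosine phosphorylase, was on with 1520 counts and 13.7 TPM. Farther out on that side, IFNE had 3.62 TPM, the long noncoding RNA MIR31HG 37.9 TPM, KLHL9 100.4 TPM, FOCAD 59.4 TPM and MLLT3 18.8 TPM. On the other side of CDKN2B, DMRTA1 and ELAVL2 had 0 counts. Within 2 Mb of CDKN2A, 5 of 25 protein-coding genes were on and 18 had 0 counts. Of all protein-coding genes, 60.3% were on and 24.4% had 0 counts. Of these 25 genes 16 encode interferons, and only 2 of the 16 had any count. Beyond that window at higher coordinates, only CAAP1, PLAA, IFT74 and TEK were followed. They had 8.08, 18.7, 4.84 and 11.4 TPM. Genes between the window and CAAP1 were not followed, so where the genes at 0 counts end is not known. Every protein-coding gene from CDKN2A to ELAVL2 within the window was at 0 counts, but these are only CDKN2A, CDKN2B, DMRTA1 and ELAVL2. Whether this stretch is present in the cells was not tested.

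**Figure D4:**
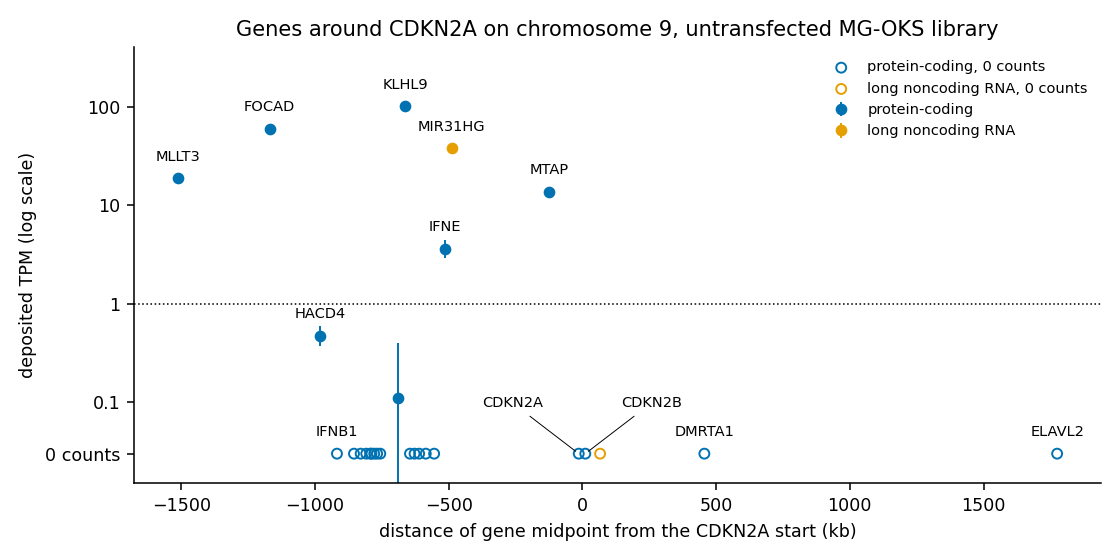
Deposited TPM on a log scale of protein-coding genes and 2 long noncoding RNAs within 2 Mb of CDKN2A in the untransfected library, against the distance of the gene's midpoint from the CDKN2A start in kb. Bars are 95% counting intervals, 1 of which runs below the axis, and open circles are genes with 0 counts. MTAP at 13.7 TPM lies next to the stretch at 0 counts that holds CDKN2A, CDKN2B, DMRTA1 and ELAVL2.

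Oncogenes and growth regulators were on in 29 of 32 members (90.6%), against 60.3% of all protein-coding genes. Of these members, 9 were at 100 TPM or more, a level that 8.05% of protein-coding genes reached. HMGA1, a chromatin protein of fetal and tumour cells, led with 495 TPM, and its relative HMGA2 had 29.1 TPM. CDK4 had 286 TPM, 12.3-fold more than CDK6, and CCND1, a cyclin that activates both, had 172 TPM while CCND2 had 0 counts. MYC, given above, and JUN at 181 TPM were high. MYCN had 0 counts, and MYCL had 1.35 TPM. CCNE1 had 7.75 TPM, and GLI1, a readout of hedgehog signalling, had 0.414 TPM.

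Of 32 receptor tyrosine kinases 20 were on (62.5%), near the share of 60.3% over all protein-coding genes. AXL led with 201 TPM, EGFR (Gene 1956, chromosome 7, 55019017 to 55211628) had 139 TPM and MET 122 TPM, and all 3 are receptors common in invasive tumour cells. EPHA2 had 96.9 TPM, PDGFRA 86.3 TPM, 9.66-fold more than PDGFRB, and FGFR1 58.0 TPM. ERBB2 had 31.6 TPM and IGF1R 7.34 TPM. KIT, KDR, FLT1 and NTRK3 had 0 counts, and ALK and RET had 12 and 5 counts.

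The cell cycle list had the highest median of the tumour lists, 268 TPM. Its members were on in 18 of 18 cases, against 60.3% of all protein-coding genes. At least 100 TPM was reached by 15, against 8.05% of protein-coding genes. MCM3 and MCM7, subunits of the replicative helicase, had 867 and 442 TPM, UBE2C, a mitotic ubiquitin enzyme, 515 TPM and PCNA, the replication clamp, 419 TPM. TOP2A had 306 TPM and MKI67, the proliferation marker, 49.2 TPM.

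Telomere maintenance genes were on in 15 of 15 members, against 60.3% of all protein-coding genes. TERT, the catalytic subunit of telomerase, which most somatic cells keep off, had 335 counts and 4.55 TPM [4.07 to 5.06]. The telomerase partners NHP2, NOP10 and DKC1 had 318, 266 and 135 TPM, and they also serve ribosomal RNA modification. The histone gene H3-3A had 243 TPM.

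Cancer-testis antigens, germ line genes that many tumours switch on, were almost all off, with 2 of 30 on and 25 at 0 counts. Of all protein-coding genes, 60.3% were on and 24.4% had 0 counts. PRAME (Gene 23532, chromosome 22, 22547701 to 22559265), an antigen of melanoma and leukaemia, stood out with 3098 counts and 73.8 TPM. LAGE3, a broadly expressed member of the same list, had 23.3 TPM. MAGEA1, MAGEA3, MAGEA4, MAGEB2, MAGEC1, MAGEC2 and CTAG1B had 0 counts. Many of these genes have near-identical copies, whose reads may have been lost in counting, so their zeros are uncertain. Of 13 germ line genes none was on, and the highest, PIWIL2, had 0.479 TPM.

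Fetal and imprinted genes were on in 9 of 14 members (64.3%), near the 60.3% of all protein-coding genes. The growth factor IGF2 had 67.0 TPM, whereas H19, its imprinted neighbour, had 4.72 TPM. The IGF2 mRNA-binding proteins were all on, IGF2BP2 at 53.5 TPM, IGF2BP3 at 41.5 TPM and IGF2BP1 at 23.9 TPM. MEG3, a maternally expressed RNA, had 42.3 TPM, and its neighbour DLK1 and PEG3 had 0 counts.

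**Figure D5:**
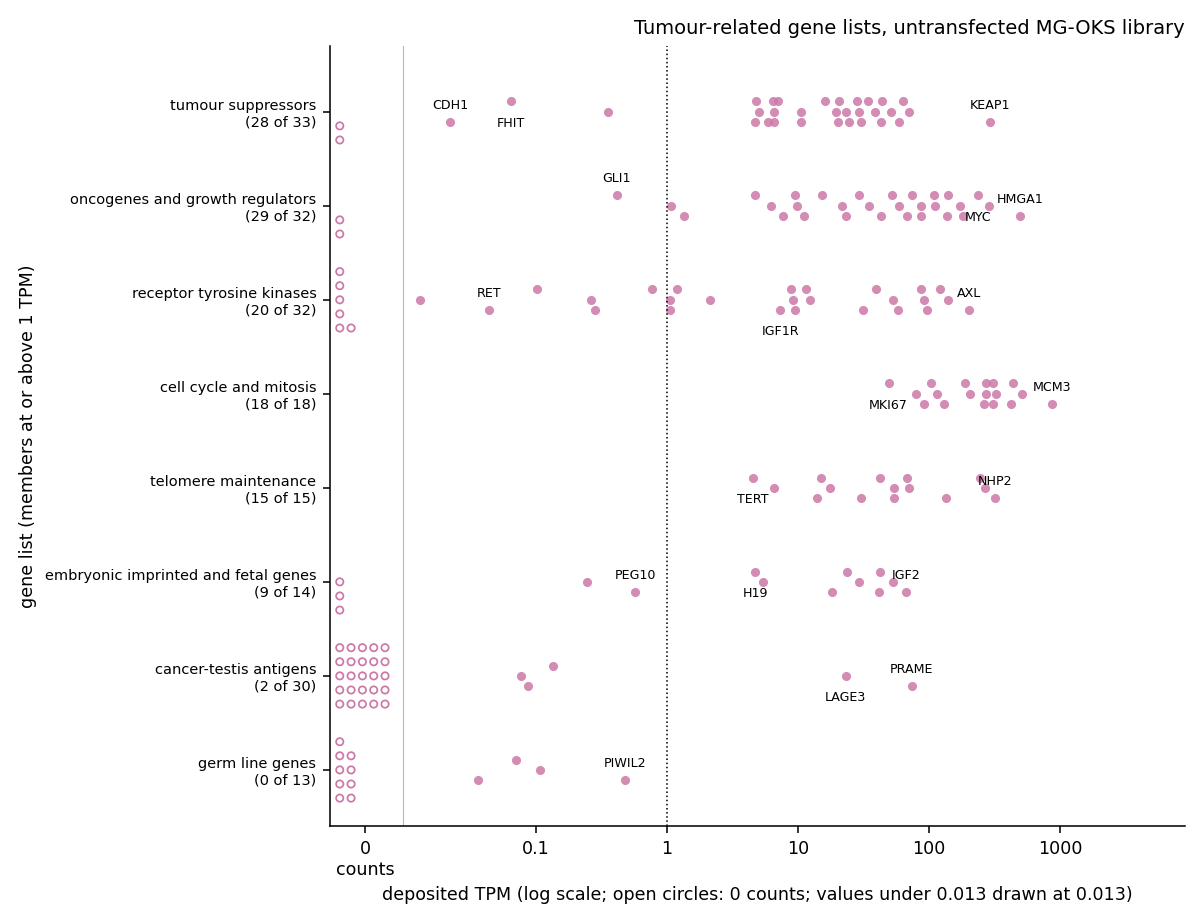
Deposited TPM on a log scale of every member of 8 tumour-related lists in the untransfected library, 1 point per gene, with genes at 0 counts as open circles at the left and the level of 1 TPM dotted. The 18 cell cycle genes lie at or above 49.2 TPM, and 25 of 30 cancer-testis genes are at 0 counts.

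Matrix protease genes were on in 11 of 14 members (78.6%), against 60.3% of all protein-coding genes. The highest were the inhibitors TIMP1 and TIMP2. They had 326 and 305 TPM, and TIMP3 had 126 TPM. MMP14, a membrane-bound activator of MMP2, had 131 TPM, and MMP2 33.9 TPM. The collagenase MMP1 had 7.16 TPM, 45.5-fold below TIMP1, and MMP9 had 8 counts. PLAU, an activator of plasminogen, had 88.4 TPM.

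Targets of NRF2, the oxidative stress factor held back by KEAP1, were on in 12 of 13 members (92.3%), against 60.3% of protein-coding genes. TXNRD1 had 217 TPM, NQO1 88.8 TPM, SRXN1 83.6 TPM and SLC7A11, a cystine importer, 18.4 TPM. The aldo-keto reductases were low, with AKR1C1 at 5.61 TPM and AKR1B10 at 2.01 TPM. The S100 and annexin list was on in 12 of 15 members (80%), also against 60.3% of protein-coding genes. S100A6, given above, led it at 4547 TPM, and the broadly expressed ANXA2 and S100A10 had 2558 and 1169 TPM. S100A2, which basal keratinocytes make, had 178 TPM. The inflammatory pair S100A8 and S100A9 had 11 and 4 counts.

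Immune and inflammatory genes were on in 8 of 16 members (50%), against 60.3% of all protein-coding genes. The class I antigen presentation genes B2M, HLA-C and HLA-B had 1241, 718 and 310 TPM. IL1B had 50.3 TPM and CXCL8 16.3 TPM, whereas IL6 had 2 counts, CXCL1 0 and the checkpoint ligand CD274 9 counts. Among long noncoding RNAs the highest were SNHG29 at 908 TPM, NEAT1, which builds nuclear paraspeckles, at 849 TPM, and GAS5 at 655 TPM.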

How the data were processed

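Poly(A) RNA of 1 untransfected culture was sequenced from a stranded mRNA library, per the labels' protocols. The authors deposited whole-number read counts per gene with TPM and FPKM values, in 1 table keyed, per the file headers, by NCBI Gene ID with symbol and biotype. The tool HISAT2 2.1.0 and the build GRCh38 are those named in the submitters' processing notes. The counting tool and whether counting used the strand are not given in the sources used here, so genes and their antisense partners cannot be told apart. The deposited FPKM values were used only as a check, the median ratio of TPM to FPKM being 2.35.

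Levels are the deposited TPM. Intervals at 95% are exact Poisson for a count and exact conditional binomial for a ratio of 2 genes, carried to TPM, and were tested on simulated data. Reads had no molecular identifiers. A gene was on at 1 TPM, and ranks run over all 46427 genes. With 1 library no test was possible, and no p-value was computed. The 33 lists hold 601 different genes. Named genes come from the 30 most abundant and, per list, the 4 highest, the marked defining members and members at 0 counts. A few of these are not reported here. Others named were chosen after their values were seen. Members and lists were chosen with earlier results of these data known. Gene positions were matched by Gene identifier to RefSeq GRCh38.p14 for 44694 genes. Python 3.11.15, pandas 2.3.3 and scipy 1.17.1 were used. Alternatives were other on levels, CPM in place of TPM, a count minimum, protein-coding genes alone, and totals without abundant genes.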

Additional observations from a re-analysis of the deposited data

How the results depend on the processing

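The number of genes on was 14110 at 1 TPM, 15720 at 0.5 TPM, 10689 at 5 TPM, 13758 at 1 CPM, 16865 at 10 counts, 14385 with TPM rescaled without mitochondrially encoded and the 10 most abundant genes, 11864 among protein-coding genes alone and 14031 without 155 readthrough genes. Across the first 5 of these alternatives, epithelial members on ranged from 28 to 55 of 78, mesenchymal from 34 to 39 of 40, pluripotency from 7 to 11 of 29, tumour suppressors from 26 to 29 of 33, and cancer-testis genes stayed at 2 of 30. None of these counts moved by over 1.5 times. The share held by the 10 most abundant genes was 9.14% of TPM, but 5.91% by CPM and 7.68% of TPM without mitochondrially encoded genes. Without length correction, 12 of 18 ranks followed were nearer the top and 6 farther from it, with EGFR at 191 by CPM and 1147 by TPM, and LGALS1 at 78 by CPM and 17 by TPM. No paired analysis was possible because the report describes 1 library with no group to pair it with. No value has a replicate check, and levels resting on a few counts have wide counting intervals.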
